A study of Homo sapiens with 12 samples.

Results

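The clustered replication-dependent histone genes were taken as the genes whose symbols begin with HIST1H, HIST2H, HIST3H or HIST4H in both gene count tables, leaving out symbols that end in PS, which mark pseudogenes. The rule gave 72 genes out of 28008 listed in the silencing table and 25435 in the overexpression table: 6 for the linker histone H1, 17 for H2A, 20 for H2B, 14 for H3 and 15 for H4. HIST2H2BA and HIST2H2BC are annotated as pseudogenes and were kept because the rule keeps them. In the GENCODE 29 annotation of GRCh38, 55 lie on chromosome 6, 16 on chromosome 1 and 1, HIST4H4, on chromosome 12. The largest groups are 32 genes at chr6:26017085-26285638, 16 genes at chr6:27807444-27893843, 12 genes at chr1:149782689-149887916 and 5 genes at chr6:27125897-27147515.

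RNA-Seq was done on LNCaP cells, an androgen-dependent human prostate cancer line, in separate experiments with 3 libraries per group. In the silencing experiment, LNCaP-ER/tet-MUC1shRNA cells, LNCaP cells selected for growth in enzalutamide and carrying a doxycycline-inducible short hairpin RNA against MUC1, received vehicle or 500 ng/mL doxycycline (DOX) for 7 days, so the resistance and the hairpin construct were common to both groups and DOX itself was given to one of them only. The overexpression experiment set LNCaP cells beside LNCaP cells that overexpress MUC1-C, the transmembrane subunit of the mucin MUC1 (MUC1-C_OE). The labels call these controls wild-type, while their columns in the count table are named for a vector, and the treated samples carry both shMUC1-C and OE in their titles. What the control cells carry is therefore uncertain, and each difference in this experiment is between libraries so labelled. By the study's methods the RNA came from triplicate cultures. Whether these were grown on separate days, and whether the lines are single clones, is not given in the sources used here, so each p-value measures the spread between these cultures, which may be technical.

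Replication-dependent histone genes are transcribed mainly in S phase, when newly made DNA has to be packed into nucleosomes. An octamer of H2A, H2B, H3 and H4 forms the core of the nucleosome, and H1 binds the linker DNA. Their mRNAs, unlike other mRNAs, usually end in a conserved stem-loop in place of a poly(A) tail: the stem-loop binding protein SLBP and the U7 small nuclear ribonucleoprotein direct cleavage just after it. Some members can also be read through to a poly(A) signal further on, which is known from differentiated and non-dividing cells. Selection of RNA by its poly(A) tail, the kind of library kit named in the labels for every sample, therefore bears directly on how much of these mRNAs is counted.

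The stem-loop was looked for by its known form, a stem of 6 base pairs that opens with a pair of guanines and closes with a pair of cytosines around a loop of 4 bases, and was found in the annotated transcripts of 33 of the 72 members. A missing match, as for HIST1H2BK, whose longest annotated transcript has 381 bases, does not show that the mRNA lacks a stem-loop. The following stretches, read in the sense direction from GENCODE 29 transcripts, are shown because this element sets the 3′ end that the counts depend on, with the 16 bases of the stem-loop in capitals and 5 bases on either side.
HIST2H2BE: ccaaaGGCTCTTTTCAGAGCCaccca
HIST1H2BC: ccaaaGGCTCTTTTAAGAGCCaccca
HIST1H2AG: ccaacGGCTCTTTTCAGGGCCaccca
HIST1H3E: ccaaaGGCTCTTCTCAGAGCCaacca
HIST1H4B: ccaatGGCCCTTTTCAGGGCCgccca
HIST2H4A: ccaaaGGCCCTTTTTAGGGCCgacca
The form of HIST2H2BE was the most frequent, in 17 of the 33, and those of HIST1H4B and HIST1H2BC were each found in 5. The annotated transcript of 22 members runs on for more than 300 bases past the stem-loop, as in HIST2H2BE, where 1729 bases follow it, against 116 in HIST1H2BC and 39 in HIST1H2BD. By RefSeq, 9 members span more than 1000 bases in the genome: HIST1H2BC, HIST1H2BD, HIST1H2BK, HIST1H3D, HIST1H3E, HIST2H2BA, HIST2H2BE, HIST2H2BF and HIST2H4B. A span in the genome is not a transcript length: the longest GENCODE transcript was 381 bases for HIST1H2BK and 411 for HIST1H3D. Annotated sequence past the stem-loop shows that longer transcripts have been recorded, not that they were made in these cells.

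Many H2A and H2B genes lie head to head and share the DNA between their starts. There were 12 such pairs among the members. The DNA between the starts is printed for 3 of them because the partners of the first and second pairs differed most in the silencing experiment, while those of the third, a close relative of the second, did not (chosen after their values were seen). Each runs 5′ to 3′ on the minus strand of GRCh38.p14 (RefSeq) from the start of the H2A gene to the start of the H2B gene, at chr1:149886683-149886917, chr6:27146856-27147105 and chr6:27132796-27133042, with 3 motifs in capitals, searched on either strand. These were the TATA box, written TATAAA, the CCAAT box, and the octamer core, written TTTGCAT.
HIST2H2AC to HIST2H2BE: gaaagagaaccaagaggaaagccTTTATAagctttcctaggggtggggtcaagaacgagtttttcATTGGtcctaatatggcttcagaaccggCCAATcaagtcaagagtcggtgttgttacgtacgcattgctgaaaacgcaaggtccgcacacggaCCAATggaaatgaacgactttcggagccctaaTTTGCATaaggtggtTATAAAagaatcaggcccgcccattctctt
HIST1H2AH to HIST1H2BK: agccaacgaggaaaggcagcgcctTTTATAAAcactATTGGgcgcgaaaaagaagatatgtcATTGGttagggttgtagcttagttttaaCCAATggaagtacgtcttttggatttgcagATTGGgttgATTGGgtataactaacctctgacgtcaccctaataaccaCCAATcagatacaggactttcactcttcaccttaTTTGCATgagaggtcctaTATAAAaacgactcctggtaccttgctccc
HIST1H2AG to HIST1H2BJ: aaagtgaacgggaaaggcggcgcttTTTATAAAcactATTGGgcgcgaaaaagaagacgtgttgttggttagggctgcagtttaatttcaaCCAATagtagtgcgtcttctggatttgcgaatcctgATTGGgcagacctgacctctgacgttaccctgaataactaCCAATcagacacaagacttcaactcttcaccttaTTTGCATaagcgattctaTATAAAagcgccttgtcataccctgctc
All 3 hold a TATA box near each start, several CCAAT boxes and the octamer core that POU2F1 (OCT-1) reads in H2B promoters, on the H2B side. In promoter windows of 300 bases (250 before and 50 after the start), available for 65 members, TATAAA was found in 66.2%, against 12.2% of the 27240 windows of other genes. CCAAT was found in 84.6% against 35.3%, in every window of H1, H2A, H2B and H3 and in 23.1% of those of H4. TTTGCAT was found in 68.8% of H2A and 77.8% of H2B windows, in none of those of H1, H3 or H4, and in 4.48% of other genes. A match describes the letters and is not evidence of binding.

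Total counts per library were 28045894 to 45807989 in the silencing experiment and 13806856 to 19208944 in the overexpression experiment. The library labelled DOX replicate 2 stood apart: 11.2% of listed genes had no count, against 28% to 38.1% in the other 5, and 262 of 381 olfactory receptor genes had a count, against 25 to 64. It also held 42 MUC1 counts, against 26, 10 and 13 in vehicle and 3 and 8 in DOX replicates 1 and 3, so silencing of the targeted gene was not seen in every library and the libraries are named by their labels. Class sums and the member calls that change without it are given both ways. MUC1 counts were 25 to 31 in LNCaP and 9168 to 12622 in MUC1-C_OE. KLK3, which encodes prostate-specific antigen and marks this line, was at 123 to 148 CPM (counts scaled to a fixed library total) in vehicle but at 23.8 to 26.8 in the LNCaP libraries of the overexpression table, where VIM, a mesenchymal marker, was at 457 to 508 CPM against 4.68 to 5.90 in vehicle. In MUC1-C_OE, KLK3, KLK2 and FOLH1 had no count. Their part in the histone results was not tested.

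Levels are given as CPM after normalization by the trimmed mean of M-values (TMM) unless another scale is named, log2 fold changes are DOX minus vehicle or MUC1-C_OE minus LNCaP, ± is the SD over 3 libraries for a level and the SE for a log2 fold change, and adjusted p-values come from the quasi-likelihood test of edgeR, adjusted after Benjamini-Hochberg over all genes tested.

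In the libraries labelled DOX, histone mRNA was lower than in vehicle in all 5 classes, and most in H1, H3 and H4. The sum over H1 genes was 653, 703 and 678 CPM in vehicle and 233, 195 and 256 in DOX, 2.97 times higher in vehicle. The sum over H3 genes was 476, 409 and 431 CPM against 184, 89.2 and 162, a ratio of 3.02. The H4 genes summed to 272, 312 and 275 CPM against 125, 77.8 and 136 (2.53), and the H2A genes to 583, 586 and 570 against 280, 193 and 290 (2.28). In these 4 classes every DOX library lay under every vehicle library. The H2B sum changed least, from 1310, 1140 and 1080 CPM in vehicle to 1040, 697 and 1020 in DOX (1.29), with DOX 1 close under vehicle 3. In bulk RNA, a smaller share of cells in S phase and less histone mRNA per cell cannot be told apart. Without DOX replicate 2, which had the lowest sum in every class, the log2 ratio of the group means was -1.47 for H1, -1.02 for H2A, -0.20 for H2B, -1.34 for H3 and -1.13 for H4, against -1.57, -1.19, -0.36, -1.60 and -1.34 with it.

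**Figure D1:**
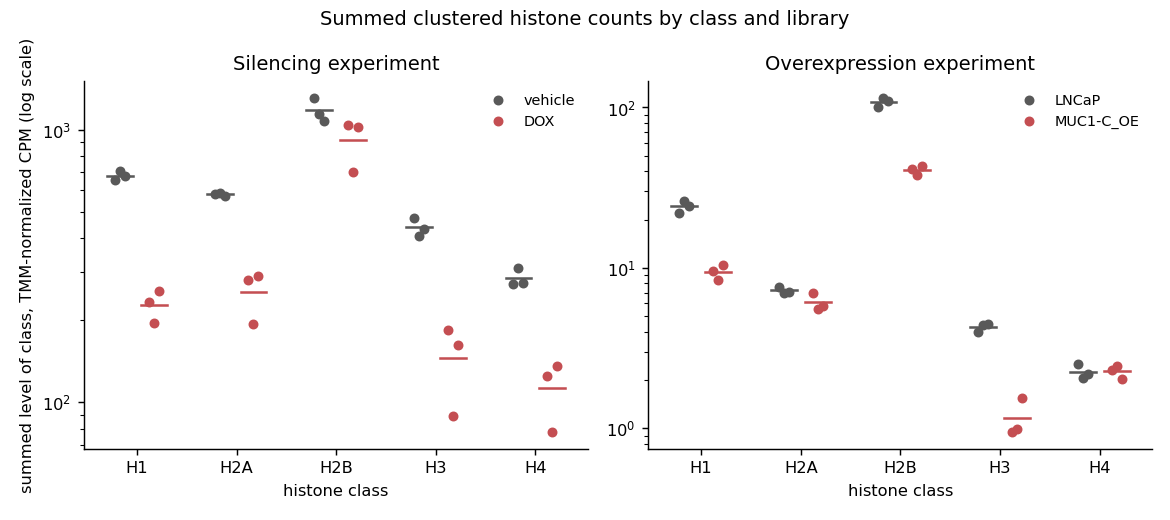
Summed TMM-normalized CPM of the genes of each histone class (log axes, a separate axis for each experiment); each point is a library and each line the mean of 3. In the silencing experiment the DOX points of H1, H2A, H3 and H4 lie under all vehicle points, and in the overexpression experiment those of H1, H2A, H2B and H3 lie under LNCaP, H2A narrowly, while the H4 groups overlap.

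Gene by gene, 49 of the 72 members passed the filter on low counts, which a gene can pass through one group alone. Of these, 38 fell, 0 rose and 11 did not pass the threshold, while 27.3% of all 14683 genes tested were called, 14.5% lower and 12.8% higher. At an unadjusted p under 0.05, 40 were lower and 0 higher (HIST1H2BM and HIST1H3E were added), and DESeq2 called 38 lower and 0 higher. The levels of 40 of the 49 did not overlap between groups and were lower in DOX, against 23.0% of all genes tested. The median log2 fold change was -1.27 over the members and -0.02 over all genes, and -1.01 and -0.01 without DOX replicate 2. Of the 23 not tested, 9 had no count in any library of the experiment, among them the near-identical copies HIST2H2AA3 and HIST2H2AA4, HIST2H3A and HIST2H3C, and HIST2H4A and HIST2H4B. Reads of such copies can map to both, so their levels are uncertain. HIST1H1D, HIST1H3F and HIST1H2BH were also listed at 0. By location, 18 of 20 tested members fell in the chr6:26017085-26285638 group (median -1.36), 13 of 15 at chr6:27807444-27893843 (-1.39), 3 of 4 at chr6:27125897-27147515 (-1.48) and 4 of 6 at chr1:149782689-149887916 (-1.18), so the decrease was found in each of the larger clusters. HIST3H2A and HIST3H2BB, at chr1:228424845-228460470, and HIST4H4 on chromosome 12 were not called.

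**Figure D2:**
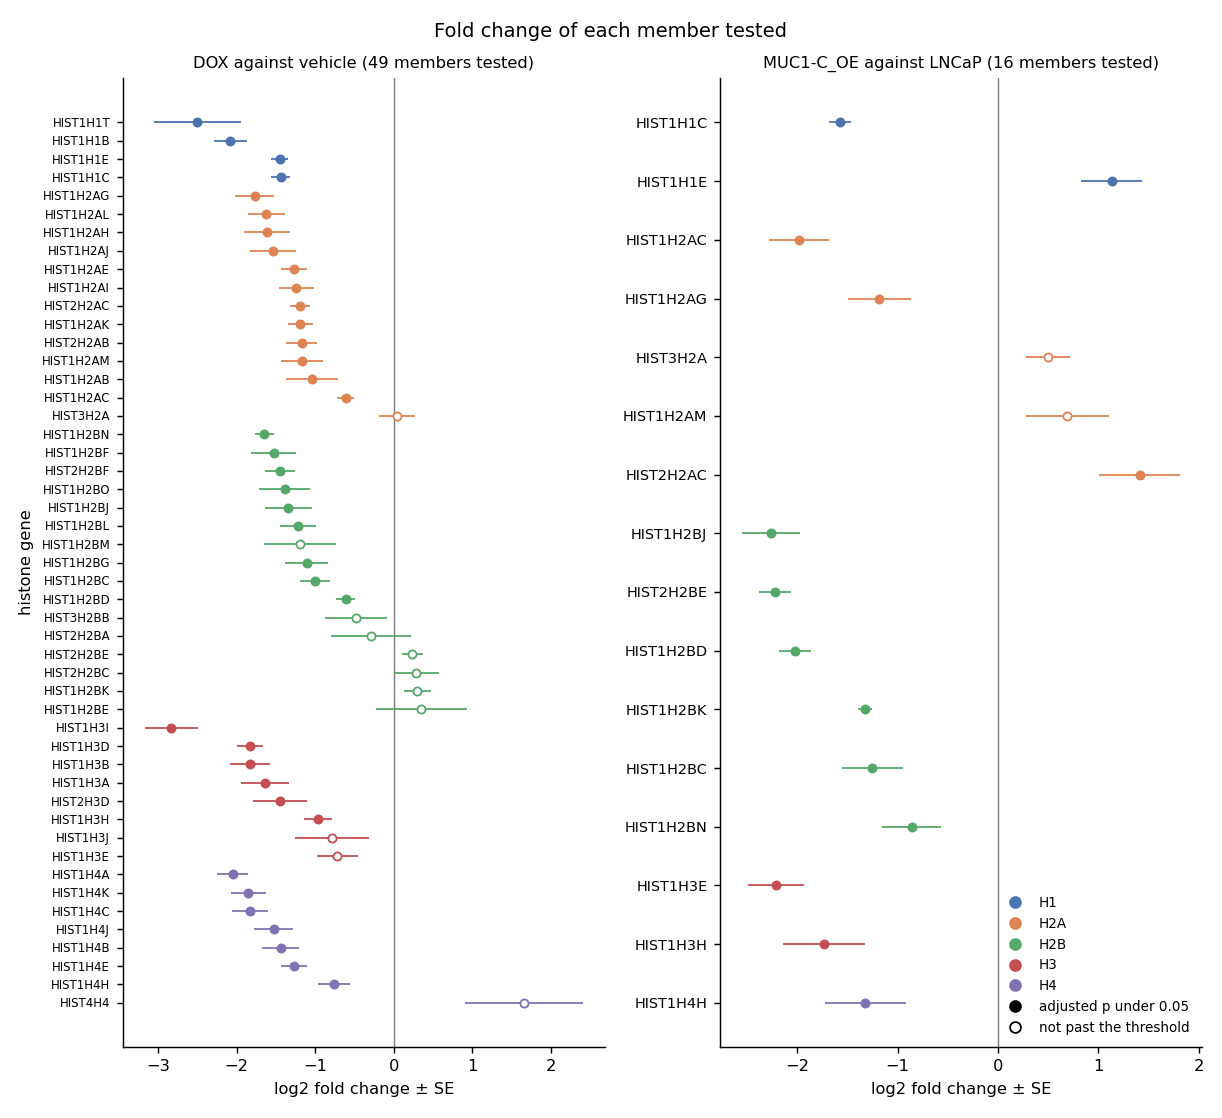
Log2 fold change ± SE from edgeR for each member tested, coloured by class, with filled points for an adjusted p under 0.05. On the left, 38 of 49 members are filled and all of these are negative; on the right, 12 of 16 are filled and negative, while HIST1H1E and HIST2H2AC are filled and positive.

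All 4 linker histone genes tested fell. HIST1H1C, the most counted of them, was at 341, 388 and 395 CPM in vehicle and 134, 123 and 157 in DOX. Its log2 fold change was -1.44 ± 0.12 (adjusted p = 0.000294). HIST1H1B was at 177, 158 and 141 CPM against 45.3, 25 and 42.1, a log2 fold change of -2.08 ± 0.21 (adjusted p = 0.000532). HIST1H1E fell by 1.45 on the log2 scale, from 143 ± 12.2 to 52.6 ± 4.53 CPM. HIST1H1T, the linker histone of the testis, was near background: 43, 25 and 28 counts in vehicle and 8, 3 and 8 in DOX. Its fitted change was -2.50 ± 0.55 (adjusted p = 0.0109), and 0.0585 without vehicle replicate 3 or 0.0579 without DOX replicate 3. HIST1H2AA and HIST1H2BA, the other testis members, had at most 5 and 10 counts and were not tested.

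Among H2A genes, 12 of 13 tested fell, with a median of -1.19. HIST2H2AC, the most counted, was at 174, 173 and 165 CPM in vehicle and 84.1, 58.9 and 81.0 in DOX, a log2 fold change of -1.19 ± 0.13 (adjusted p = 0.00081). HIST1H2AG was at 100, 108 and 108 CPM against 37.4, 17.6 and 37.5, the largest decrease of the class (-1.77 ± 0.25, adjusted p = 0.00193). HIST1H2AC fell least, by 0.61 on the log2 scale, from 61.7 ± 1.97 to 40.5 ± 5.48 CPM. HIST3H2A, in a small cluster apart from the main ones, was at 13.8, 20.3 and 22.7 CPM in vehicle and 15.6, 25.4 and 17.5 in DOX. These overlap, and the fitted change was 0.04 ± 0.23 (adjusted p = 0.909).

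The H2B genes split. Of 16 tested, 9 fell and 7 did not pass the threshold, and the 7 included the most counted genes of the class. HIST2H2BE was at 360, 322 and 305 CPM in vehicle and 441, 326 and 396 in DOX (0.24 ± 0.13, adjusted p = 0.191), and HIST1H2BK was at 206, 194 and 169 CPM against 245, 174 and 281 (0.30 ± 0.17, adjusted p = 0.213). Their groups overlap only through DOX replicate 2. Without that library both were called higher, HIST2H2BE with 0.38 (adjusted p = 0.0184) and HIST1H2BK with 0.50 (adjusted p = 0.00793), as was HIST4H4. Over the alternatives tried, neither was called lower under any. Together they made up 518 ± 46.6 CPM in vehicle and 621 ± 105 in DOX, while the other 18 H2B genes summed to 747, 626 and 606 CPM in vehicle and 353, 196 and 338 in DOX, a ratio of 2.23. Both genes accounted for 16.5% of all member counts in vehicle and 37.3% in DOX. Among the H2B genes that fell, HIST1H2BN had the largest change (-1.65 ± 0.12, from 56.5 ± 1.49 to 18.0 ± 2.16 CPM), HIST1H2BC went from 179 ± 20.0 to 89.3 ± 24.9 CPM and HIST1H2BD from 76.3 ± 5.25 to 50 ± 7.44 CPM. HIST1H2BM was at 43.8, 27.1 and 21.2 CPM against 19.6, 4.58 and 16.2, with an adjusted p of 0.0839.

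Of 8 H3 genes tested, 6 fell. HIST1H3B, the most counted, was at 201, 190 and 199 CPM in vehicle and 73.5, 30.5 and 61.1 in DOX (-1.83 ± 0.26, adjusted p = 0.00215). HIST1H3I had the largest decrease of all members tested, from 16.9, 15.4 and 13.1 CPM to 2.94, 0.943 and 2.44, a log2 fold change of -2.83 ± 0.34 (adjusted p = 0.00111), and -2.47 without DOX replicate 2. HIST1H3H fell by 0.96, from 71.2 ± 3.11 to 36.6 ± 9.80 CPM. HIST1H3E was at 5.36 ± 1.18 and 3.25 ± 0.728 CPM and HIST1H3J at 3.87 ± 1.68 and 2.22 ± 1.22; neither passed the threshold (adjusted p = 0.0675 and 0.24).

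Of 8 H4 genes tested, 7 fell. HIST1H4B was at 84.1, 92.0 and 80.7 CPM in vehicle and 39.9, 18.5 and 36.3 in DOX (-1.44 ± 0.24, adjusted p = 0.00399). HIST1H4A fell by 2.05, from 11.6 ± 0.603 to 2.78 ± 0.607 CPM, and HIST1H4K by 1.85, from 32.0 ± 7.40 to 8.80 ± 2.19 CPM. HIST1H4H had the smallest decrease, from 64.1 ± 4.22 to 37.8 ± 11.1 CPM (-0.76 ± 0.20, adjusted p = 0.0218). Its call was lost without vehicle replicate 1, 2 or 3 (adjusted p = 0.0643, 0.0683 and 0.0587), and without DOX replicate 2 the change was -0.50 (adjusted p = 0.00442). HIST4H4 had 5, 9 and 12 counts in vehicle and 29, 7 and 72 in DOX (1.66 ± 0.75, adjusted p = 0.134).

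Partners of a head-to-head pair did not always move together. The ratio of HIST2H2BE to HIST2H2AC counts was 2.07, 1.85 and 1.84 in vehicle and 5.25, 5.54 and 4.89 in DOX. That of HIST1H2BK to HIST1H2AH was 4.01, 4.68 and 4.23 in vehicle and 13, 23.0 and 16.7 in DOX. In both pairs every DOX library, replicate 2 included, lay above every vehicle library, since HIST2H2AC and HIST1H2AH fell (-1.19 and -1.61) and their partners did not. An exact permutation test of 3 against 3 cannot go below p = 0.1, and none is given for pairs picked by their values. HIST1H2BJ and HIST1H2AG, whose shared DNA is printed above as the third stretch, fell together (-1.34 and -1.77), with ratios of 0.553, 0.428 and 0.466 against 0.64, 0.554 and 0.702. For HIST1H2BL and HIST1H2AI the ratio was 1.07 to 1.12 in vehicle and 1.07 to 1.14 in DOX. The TATA, CCAAT and TTTGCAT letters are thus present in pairs of either kind.

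**Figure D3:**
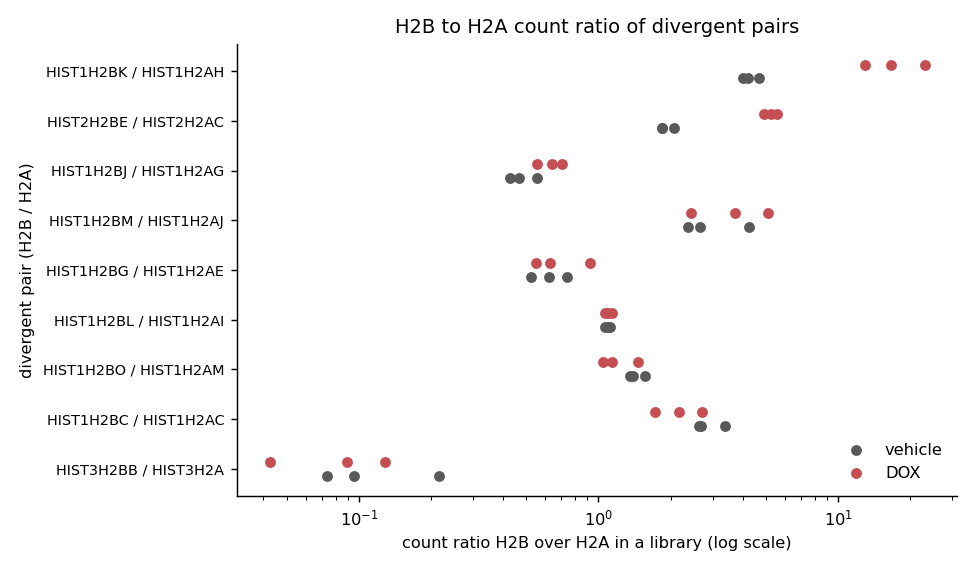
Count ratio of the H2B to the H2A gene in each library (log axis) for the 9 head-to-head pairs in which both genes were tested in the silencing experiment, with the pairs ordered by the difference of their log2 fold changes. The 3 DOX points lie clear of the 3 vehicle points for HIST1H2BK with HIST1H2AH (13 to 23.0 against 4.01 to 4.68) and HIST2H2BE with HIST2H2AC (4.89 to 5.54 against 1.84 to 2.07).

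Members were set side by side by their RefSeq span in the genome, which is not the length of a transcript. HIST1H2AG, with an annotated transcript of 2250 bases, is not among those with a long span. Of the 9 members that span more than 1000 bases, 8 were tested, 4 fell and 4 (HIST1H2BK, HIST1H3E, HIST2H2BA and HIST2H2BE) did not pass, with a median of -0.66 and a range down to -1.83 for HIST1H3D. Of the other 63, 41 were tested, 34 fell and the median was -1.34. Divided instead by annotated sequence past the stem-loop, 16 members with more than 300 bases were tested, of which 9 fell (median -0.74), and of the other 33 tested 29 fell (median -1.44). These other 33 include members, such as HIST1H2BK, without a stem-loop match in an annotated transcript. For such members the sequence past the stem-loop is unknown, not short. These are descriptions of overlapping groups of genes, and whether the counted molecules carried a poly(A) tail was not tested.

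Per unit of length, the highest deposited TPM values (transcripts scaled by length and library) in vehicle were HIST1H4B at 739 ± 128, HIST1H2BC at 719 ± 192, HIST2H2AC at 687 ± 119 and HIST1H3B at 639 ± 106. Neighbours in this order differ by less than their SD. HIST1H1C followed at 502 ± 35.9, HIST1H4H at 447 ± 98.6 and HIST1H4C at 324 ± 36.7, so that each class had a member among the first 5. HIST1H2BK and HIST2H2BE, high in counts, were at 192 ± 46.6 and 103 ± 24.0 TPM. The deposited TPM divides by an effective length, which for short genes is small: relative to GAPDH it was 0.0433 for HIST1H4B, 0.277 for HIST1H1C, 0.374 for HIST1H2BK and 1.21 for HIST2H2BE. It gave the small nuclear RNA RN7SK 24.6% to 37.7% of all TPM in a library, so that a smaller share of RN7SK raises the TPM of every other gene. On log2(TPM + 1), limma put the median of all genes at 0.45 and that of the members at -0.72, and called 33 of 51 members lower and 8 higher, whereas over the whole table of 11404 genes it called 2.23% lower and 43.8% higher. HIST1H2AC (-0.06), HIST1H2BD (-0.06), HIST1H2BC (-0.48), HIST1H3H (-0.44) and HIST1H4H (-0.24) were no longer called lower on this scale. Those called higher included HIST1H2BK at 0.83 (adjusted p = 0.00246) and HIST2H2BE at 0.78 (adjusted p = 0.00269), by limma with Benjamini-Hochberg adjustment.

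Some other RNAs that lack a poly(A) tail were also lower in DOX. RN7SK, the RNA that holds the elongation factor P-TEFb inactive, was at 23700, 26500 and 30800 CPM by library total in vehicle and 16000, 10400 and 17700 in DOX (-0.95, adjusted p = 0.017). The spliceosomal RNA genes RNU4-1 and RNU4-2 fell by 2.29 and 2.34. Of 22 such genes on the list, 12 were tested, 3 fell, none rose and 9 did not pass, with a median of -0.70, beside the 14.5% of all genes that fell. RN7SL1, RN7SL2, RMRP and RPPH1 overlapped between groups and did not pass (adjusted p = 0.0843 to 0.454), and RMRP was higher in DOX 3, at 4450 CPM, than in any vehicle library. By library total, small nucleolar RNAs with SNORD symbols summed to 632 to 779 CPM in vehicle and 231 to 455 in DOX, SNORA to 306 to 401 against 159 to 230, and the Cajal body RNAs (SCARNA) to 225 to 324 against 102 to 167. DOX replicate 2 was lowest for the histones, SNORD, SCARNA and RN7SK, and DOX replicate 1 for SNORA. For RN7SK and these 3 sums each of the 3 DOX libraries lay under every vehicle library. The part of RNA selection in the histone difference was not tested.

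**Figure D4:**
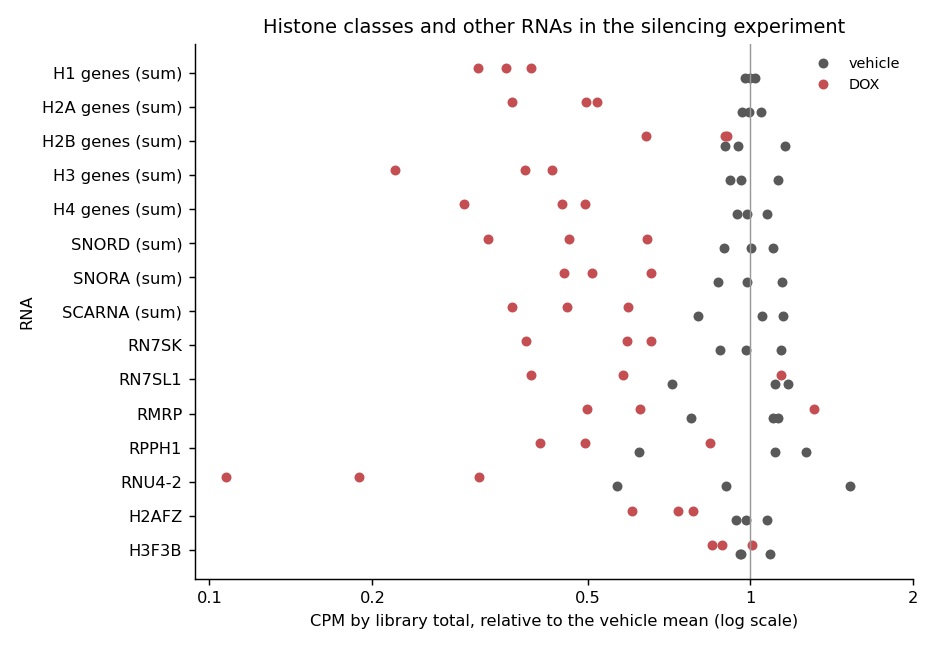
CPM by library total of the histone classes, other RNAs without a poly(A) tail and the polyadenylated variant genes H2AFZ and H3F3B in each library of the silencing experiment, divided by the mean of the vehicle libraries (log axis). The DOX points of H1, H2A, H3, H4, SNORD, SNORA, SCARNA, RN7SK, RNU4-2 and the polyadenylated H2AFZ lie under all vehicle points. Those of H2B, RN7SL1, RMRP, RPPH1 and H3F3B reach into them.

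Histone variant genes outside the clusters, taken here as polyadenylated, were lower by less at the median. Of 12, 10 were tested, 5 fell, none rose and 5 did not pass, with a median of -0.36. Over all genes tested, 14.5% fell and 12.8% rose, and the median was -0.02. CENPA, the H3 variant of centromeres, fell most, by 1.57, from 11.9 ± 0.756 to 4 ± 0.895 CPM. This was more than the median of the clustered members (-1.27). H2AFZ, which encodes H2A.Z, fell by 0.57 (379 ± 14.8 to 255 ± 39.6 CPM), H2AFV by 0.50, the linker variant H1FX by 0.52 and H1F0, the linker histone of non-dividing cells, by 0.93 with overlapping groups. H2AFX, the damage-marked variant, was at -0.20 and H3F3B, which encodes the replacement histone H3.3, at -0.20 (adjusted p = 0.604 and 0.189). H3F3A was listed at 0 in every library of both experiments. Its level is uncertain, since the counter and annotation are not given.

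The genes that make and process histone mRNA moved in part. SLBP was at 52.4 ± 2.52 CPM in vehicle and 52.5 ± 10.9 in DOX (adjusted p = 0.986). NPAT, the coactivator of histone gene transcription that cyclin E-CDK2 phosphorylates, fell by 0.52 (62.1 ± 0.403 to 43.2 ± 3.86 CPM, adjusted p = 0.00563). CASP8AP2 (FLASH), its partner in histone locus bodies, fell by 0.65, LSM11 of the U7 particle by 0.81 and POU2F1 by 0.65. ZNF473, another U7-associated protein, was at -0.36 (adjusted p = 0.142) and LSM10 at 0.32 (adjusted p = 0.058). Of 26 tested in this list 8 fell, none rose and 18 did not pass (median -0.22). For this list and the next ones, 14.5% of all genes tested fell and 12.8% rose (median -0.02). SLBP is counted both in this list and among the S-phase genes. Of 22 S-phase genes 8 fell, 1 rose and 13 did not pass (median -0.49): PRIM1, the primase subunit, fell by 1.25 and CCNA2, cyclin A, by 1.29, while CCNE1, cyclin E1, rose by 0.56 and CCNE2 and E2F1 were at -0.62 and -0.33 without passing. Of 25 histone chaperones 10 fell, none rose and 15 did not pass (median -0.40). ANP32E, which removes H2A.Z, fell by 1.46, and ATRX, which deposits H3.3, by 0.70. CHAF1B (-0.68) and ASF1A (-0.51) also fell. NASP and CHAF1A, which serve newly made H3 and H4, were at -0.23 and -0.31 (adjusted p = 0.451 and 0.258). HIRA and DAXX were at 0.09 and -0.21 (adjusted p = 0.517 and 0.197). The list was not divided by the histone that each chaperone serves.

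In the overexpression table few members were measurable: 22 of the 72 had no count in any library, and 35 had at most 3 in each. The filter can be passed through one group alone: of the 12 members that fell, 8 had fewer than 10 counts in some MUC1-C_OE library, so the count and the median below lean toward genes that differ. Of the 16 that passed, 12 fell in MUC1-C_OE, 2 rose and 2 did not pass the threshold, whereas 67.3% of the 13836 genes tested were called, 34.1% lower and 33.2% higher. The levels of 12 did not overlap and were lower in MUC1-C_OE (35.9% of all genes tested), and those of 3 were higher (34.4%). The median was -1.32 over the members and -0.01 over all genes. HIST1H2BK made up 57.2% of all member counts in LNCaP and 55.8% in MUC1-C_OE, so the H2B sum and the total follow this gene. The H2B sum was 101, 115 and 110 CPM in LNCaP and 41.1, 38.0 and 43.3 in MUC1-C_OE (2.66 times higher in LNCaP), the H1 sum 22.0, 26.3 and 24.3 against 9.54, 8.41 and 10.4 (2.56) and the H3 sum 3.99, 4.38 and 4.47 against 0.947, 0.994 and 1.55 (3.67). The H2A sum was 7.02 to 7.63 against 5.58 to 6.97, which come close without overlapping, and the H4 sum was 2.06 to 2.51 against 2.03 to 2.45, which overlap.

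HIST1H2BK itself was at 75.9, 89.9 and 85.9 CPM in LNCaP and 34.3, 31.4 and 34.6 in MUC1-C_OE, a log2 fold change of -1.32 ± 0.07 (adjusted p = 3.07e-11). HIST1H1C was at 21.4, 25.4 and 23.4 CPM against 7.91, 6.88 and 8.67 (-1.57 ± 0.11, adjusted p = 5.86e-10). HIST2H2BE fell from 9.75, 9.5 and 8.36 CPM to 1.96, 1.76 and 2.15 (-2.22 ± 0.16, adjusted p = 1.18e-09), and HIST1H2BD from 8.73 ± 0.381 to 2.12 ± 0.499 CPM (-2.02 ± 0.16). For these 4 genes, which had at least 10 counts in every library, no library of one group reached those of the other. The other decreases rest on fewer counts: HIST1H2BJ had 45, 37 and 45 counts against 6, 6 and 8 (-2.26 ± 0.29), HIST1H3E 46, 51 and 56 against 6, 7 and 12 (-2.21 ± 0.28) and HIST1H2AC 51, 39 and 35 against 6, 6 and 12 (-1.98 ± 0.30). HIST1H2AG, HIST1H2BC, HIST1H2BN, HIST1H3H and HIST1H4H fell by 0.86 to 1.73. HIST1H4H lost its call with DESeq2 (adjusted p = 0.0909), and HIST1H2BN with DESeq2 (0.0818) and without MUC1-C_OE replicate 2 (0.0914 with edgeR).

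HIST1H1E and HIST2H2AC rose. HIST1H1E had 8, 17 and 16 counts in LNCaP and 23, 19 and 27 in MUC1-C_OE (1.13 ± 0.30, adjusted p = 0.00329), and HIST2H2AC 9, 3 and 7 against 14, 8 and 17 (1.41 ± 0.40, adjusted p = 0.00534). In CPM neither overlapped. HIST3H2A, with 38, 33 and 33 counts against 46, 33 and 33, was at 0.50 ± 0.22 (adjusted p = 0.0537, and 0.0184 with 0.68 without MUC1-C_OE replicate 3), and HIST1H2AM at 0.69 ± 0.41 (adjusted p = 0.141). HIST1H4A had 9, 7 and 5 counts against 8, 11 and 5 and was not tested, and HIST1H1T, HIST1H2AA and HIST1H2BA had at most 1 count in a library. The 5 tested members that span more than 1000 bases all fell (median -2.02), as did 7 of the other 11 (median -1.18).

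Most of the processing, S-phase and chaperone genes rose in MUC1-C_OE, and the variants went both ways. Over all genes tested in this experiment, 33.2% were called higher and 34.1% lower, with a median of -0.01. The variants were near these shares. Of 26 histone mRNA processing genes tested 15 rose, 1 fell and 10 did not pass (median 0.19). SLBP rose by 0.47 (102 ± 3.55 to 141 ± 2.86 CPM), NPAT by 0.41, CASP8AP2 by 0.63 and ZNF473 by 0.53, LSM11 was at -0.04 (adjusted p = 0.639), and the histone mRNA exonuclease gene ERI1 fell by 0.41. Of 22 S-phase genes 17 rose, 1 fell and 4 did not pass (median 0.25), with UHRF1 at 0.89, CCNA2 at 0.51, CCNE1 at 0.42, E2F1 at 0.14 and CCNE2 at -0.47. Of 25 chaperones 18 rose, 2 fell and 5 did not pass (median 0.31), among them NASP at 0.83 and CHAF1A at 0.69. Of 10 polyadenylated variants tested 3 rose, 3 fell and 4 did not pass (median 0.11): H1FX was at 0.50 and H2AFX at -0.21, both called, H2AFZ at 0.02, H3F3B at 0.06 and H1F0 at 0.16. H2AFJ fell by 5.23, from 1.95 ± 0.253 to 0.0454 ± 0.0402 CPM. Of the RNAs without a poly(A) tail, only 10 of 22 were listed in this table, without RN7SK, RN7SL1, RNU4-1 and RNU4-2. Of these 10, 2 were tested, RMRP at -0.42 and TERC at 0.54 (adjusted p = 0.379 and 0.158). SNORD genes summed to 61.7 to 94.9 CPM by library total in LNCaP and 63.3 to 88.7 in MUC1-C_OE, which overlap.

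Set side by side, 16 members were tested in both experiments, and 9 of them fell in both. Of all genes tested, 14.5% fell with DOX and 34.1% with MUC1-C_OE, and the share that fell in both was not worked out. Of the 9, all but HIST1H1C and HIST1H2BD had low counts in some MUC1-C_OE library. The filter can be passed through LNCaP alone, so the 9 lean toward genes that differ. HIST1H1C had nearly the same value in each, -1.44 with DOX and -1.57 with MUC1-C_OE. HIST2H2BE (0.24 and -2.22) and HIST1H2BK (0.30 and -1.32) fell only with overexpression by these tests, and HIST1H1E (-1.45 and 1.13) and HIST2H2AC (-1.19 and 1.41) fell with DOX and rose with overexpression. The difference between experiments was not tested, since the tables were made separately and the lines differ. HIST2H2BE and HIST2H2AC, which share the first printed stretch of DNA, thus moved apart in both experiments and in opposite directions. The count ratio of HIST2H2BE to HIST2H2AC was 22.0, 60.0 and 23.0 in LNCaP and 2.07, 2.88 and 2.12 in MUC1-C_OE, against 1.84 to 2.07 in vehicle. The LNCaP ratios rest on 9, 3 and 7 HIST2H2AC counts. This was not particular to that pair. The ratio of HIST1H2BJ to HIST1H2AG, which fell together in both experiments, was 0.428 to 0.553 in vehicle and 0.554 to 0.702 in DOX. It was 2.05, 1.61 and 1.88 in LNCaP and 1, 0.857 and 0.8 in MUC1-C_OE.

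The level itself differed far more between the tables than within them. By library total, member counts were 2890 to 3340 CPM in vehicle and 145 to 163 CPM in LNCaP, and 47 members had at least 10 counts in every vehicle library against 14 in LNCaP. H1 sums were 646 to 674 CPM beside 23.2 to 27.7, H2A 544 to 590 beside 7.38 to 8.07, H2B 1030 to 1330 beside 106 to 121, H3 392 to 482 beside 4.22 to 4.71 and H4 263 to 299 beside 2.16 to 2.66. The tables were made separately, so these levels carry no test. For the 10795 genes at 1 CPM or more in both, the median ratio of vehicle to LNCaP was 0.881. For the 38 members tested with DOX that had over 3 counts in the LNCaP libraries together it was 84.7. These medians have unlike floors, since many of the 38 were under 1 CPM in LNCaP. Among members at 1 CPM or more in both, the ratios ran from 1.90 for HIST1H3E to 110 for HIST1H2BC.

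The members were not reduced evenly. HIST1H2BK was at 185 ± 24.1 CPM in vehicle and 88.4 ± 7.40 in LNCaP, a ratio of 2.10, and HIST1H3E at 5.25 ± 1.35 and 2.76 ± 0.34 (1.90). HIST1H2BD (74.5 ± 7.68 and 9.20 ± 0.377) and HIST1H1C (364 ± 17.4 and 24.7 ± 2.03) had ratios of 8.09 and 14.8, and HIST2H2BE (321 ± 38.3 and 9.70 ± 0.787) one of 33.1. HIST1H3B was at 191 ± 10.6 and 0.271 ± 0.0603 CPM, a ratio of 706, and HIST2H2AC had one of 491. HIST1H1B, with 3977 to 6675 counts in the vehicle libraries, had 1, 0 and 0 in LNCaP, and HIST1H3I, HIST2H3D and HIST1H2BM had none.

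**Figure D5:**
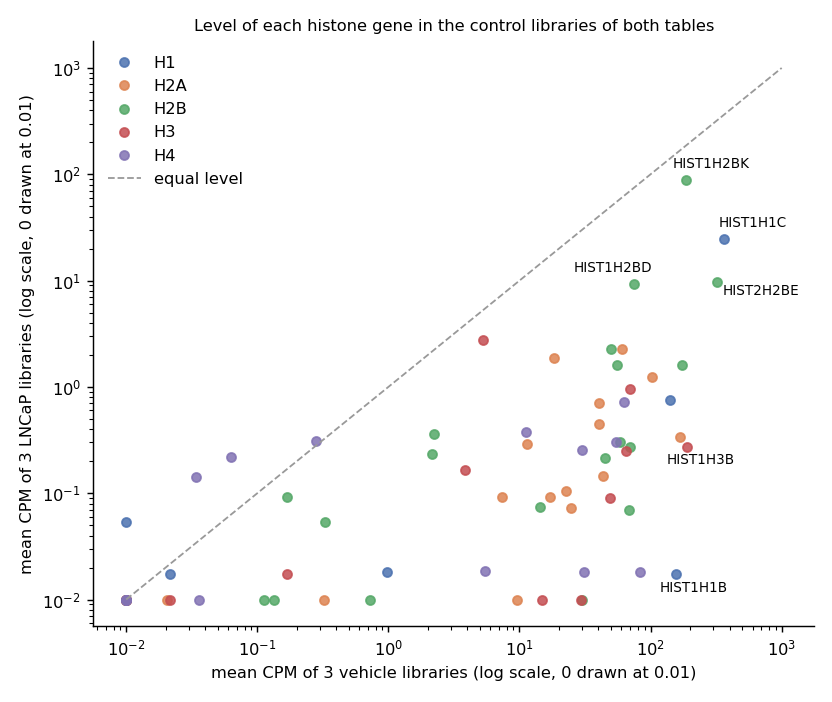
Mean CPM by library total of each member in the 3 vehicle libraries (x axis) and the 3 LNCaP libraries (y axis), on log axes with 0 drawn at 0.01 and coloured by class. Nearly all members above 1 CPM in vehicle lie far under the line of equal level; HIST1H2BK, at 185 and 88.4 CPM, and HIST1H3E, at 5.25 and 2.76, lie nearest to it.

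Some RNAs that always lack a poly(A) tail differed in the same direction. RMRP was at 2630 to 3810 CPM in vehicle and 0.781 to 0.876 in LNCaP, and RPPH1 at 2870 to 5850 beside 0.364 to 0.777. SNORD genes summed to 632 to 779 beside 61.7 to 94.9. RNU11 went the other way, at 0 CPM in vehicle and 0.219 to 0.555 in LNCaP. Only 10 of the 22 such RNAs were listed in the overexpression experiment, so the others could not be compared. The polyadenylated variants summed to 1590 to 1680 CPM in vehicle and 2220 to 2320 in LNCaP, and the S-phase genes to 1270 to 1810 beside 3840 to 3910. The labels name the same library kit for all samples. The genes listed also differ, 28008 in the silencing table and 25435 in the overexpression table, and the counter and annotation are not given. Cell line, experiment, library making and the genes listed differ together between the tables and cannot be told apart here.

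The DOX values were also set out by whether a member was countable in LNCaP. Of the 14 with at least 10 counts in every LNCaP library, all were tested in the silencing experiment, 10 fell and the median was -0.86, ranging down to -1.77 for HIST1H2AG, with HIST1H2BK, HIST2H2BE, HIST3H2A and HIST1H3E not called. Of the other 58, 35 were tested, 28 fell and the median was -1.44. The 14 were chosen on libraries that the DOX comparison did not use, the groups of genes were not compared by a test, and whether the kind of 3′ end accounts for either pattern was not tested.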

How the data were processed

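Gene counts were deposited by the authors as raw read counts per gene, 1 table per experiment, and, for the silencing experiment, also as TPM. The submitters' processing notes name STAR, DESeq2, GRCh38 and hg38; versions, the counter and the annotation are not given in the sources used here. All labels name a stranded mRNA kit. Another 12 sample columns, of other cell lines, were not used.

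Each experiment was fitted on its whole count table with edgeR's quasi-likelihood test (robust, TMM, filterByExpr, Benjamini-Hochberg adjustment over all genes tested, threshold 0.05), version 4.0.16 in R 4.3.3, without a replicate term. The fit was tested on simulated data. Limma 3.58.1 and DESeq2 1.42.0 served as alternatives, besides other normalizations and filters, a replicate block and leaving out each library. No libraries were duplicates: counts differed by more than sampling noise within every group. Same-numbered libraries did not deviate together in either experiment (correlations -0.11 to 0.16 and -0.18 to -0.02).

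The members, gene lists and tests were chosen with earlier results of these data known. Genes were named by rule: per experiment the 2 most counted members of a class, the 5 largest changes in each direction (adjusted p under 0.05, at least 1 CPM, no overlap), testis members, fixed regulators and variants, and the 2 smallest p in each direction of each list; other genes were named for a count, a pair or a role after their values were seen. The lists of neuroendocrine and of mesenchymal and basal markers had 0 and 1 of 2 and 3 tested genes higher and none lower with DOX; with MUC1-C_OE, 5 of 7 neuroendocrine markers were lower and 2 higher, and 1 of 4 mesenchymal and basal markers lower and 3 higher; LNCaP markers were 6 of 10 higher with DOX and 8 of 10 lower with MUC1-C_OE; 1 of these markers is not reported here. Annotation was from GENCODE 29 and RefSeq GRCh38.p14, which held all 72 symbols; promoter windows matched 65. Pair and transcript sequences are RefSeq's and GENCODE's.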

Additional observations from a re-analysis of the deposited data

How the results depend on the processing

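With each library left out in turn, 35 to 41 members were called in the silencing experiment and 14 to 15 in the overexpression experiment. The 41 came without the library labelled DOX replicate 2, with 38 lower and 3 higher. Genes called over the whole silencing table ranged from 2002 to 5243, and the lower values came without vehicle replicate 2 (2200), vehicle replicate 3 (2002) or DOX replicate 3 (2067). Without the filter 29 members were called with DOX, and the 9 that lost their call kept log2 fold changes of -0.75 to -1.62; the cause was not tested. With deposited TPM in limma 41 (pseudocount 1) or 40 (0.1) were called, when 254 genes of the whole table were lower and 4998 higher. The median of the members tested was -0.72 (pseudocount 1) or -0.74 (0.1) on that scale; the cause was not tested beyond the shift of all genes. In the overexpression experiment, the 10-count filter left 5 members, of which 4 were called, with a median of -1.60; without a filter it was -0.98 and with DESeq2 -0.59, over 50 members each. By library total the log2 ratio of H2B sums was -1.57 and of H4 sums -0.15, since MUC1-C_OE libraries were scaled apart from LNCaP. Scaling by library size alone called 1647 genes lower and 2430 higher with DOX and 6388 lower and 3050 higher with MUC1-C_OE (medians 0.06 and -0.16), while 37 members remained lower and 0 higher, and 12 lower and 2 higher. With the replicate number as a block, 38 and 14 members were called, with medians of -1.29 and -1.32, and 4226 and 8965 genes in all; it changed no member's call. In the overexpression experiment 35 members had at most 3 counts in every library and were not tested.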
